A study of Mus musculus with 3 samples.

Results

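Broad regions of H3K9me3 that hold no KAP1 peak were described in C2C12 myoblasts, an established mouse muscle precursor line (strain C3H in the labels) kept proliferating in serum. The members were chosen by the width of the deposited region, at least 2000 bp, and by the absence of any base shared with a KAP1 peak. They number 1910 of the 39526 H3K9me3 regions in all. The study mapped KAP1 with a homemade rabbit antibody and H3K9me3 with a commercial one by chromatin immunoprecipitation and sequencing, with 1 library each. A library made without antibody was not analysed here. All cells were in the same proliferating state, so the comparison is between regions and not between conditions.

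H3K9me3, trimethylated lysine 9 of histone H3, marks compact and transcriptionally quiet chromatin and is bound by the HP1 proteins. KAP1 (TRIM28) is a corepressor that does not read DNA sequence itself. KRAB zinc finger proteins bring it to chosen sequences, many of them in endogenous retroviruses, and its partner SETDB1 then methylates H3K9. Other enzymes, SUV39H1 and SUV39H2, also make H3K9me3, chiefly at repeats around centromeres, and HP1 with its partner enzymes can spread the mark along the fibre from the place where it was laid down.

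Of the 39526 regions, 84.6% held no KAP1 peak, and of the 4559 broad regions 41.9% held none. Both shares follow from the rule and are given as background. The 1910 members made up 4.83% of the regions and 15.7% of the covered length, 6.22 Mb. The other 2649 broad regions held at least 1 KAP1 peak and covered 10.8 Mb. With 1 library per antibody there is no spread between replicates and no test between the classes. The intervals below are 95% intervals for counting error over regions, and neighbouring regions are not independent, so they are too narrow. Depth is unknown, since the lists give regions and no read totals. Positions are in mm9 and counted from 1. No mm9 sequence or gene annotation was used, so members are named by position, with neither genes nor bases.

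The rule has a width limit and an overlap limit, and members lay close to both. The narrowest members were 2000 bp wide, on chromosome 13 at 114091970 to 114093969 (score 150) and on chromosome 2 at 24052313 to 24054312 (score 156). The widest KAP1-free regions that missed the limit were 1999 bp, on chromosome 11 at 103428259 to 103430257 (score 147) and on chromosome 15 at 24009972 to 24011970 (score 208). The member nearest to a KAP1 peak, on chromosome 6 at 89814420 to 89817017, was separated from it by 14 bp. Just across that limit, a region on chromosome 4 at 7555277 to 7557518 shared 10 bp with a KAP1 peak and was not a member. Few regions depended on so small a distance. A gap of 50 bp or less separated 6 members from KAP1, and 6 broad regions with KAP1 shared 50 bp or less with it.

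Members were mostly narrow for broad regions, but their share was high again among the widest. The median member was 2639.5 bp wide (quartiles 2263 and 3469, range 2000 to 23472). Broad regions with KAP1 had a median of 3496 bp (quartiles 2663 and 4833). From 2 to 2.5 kb, 812 of 1331 regions lacked KAP1, or 61.0% (interval 58.4 to 63.6). The share was lower in each wider bin up to 6 to 10 kb, where 78 of 428 regions lacked it, or 18.2% (interval 14.9 to 22.2). At 10 kb and more it was 46.7% (interval 34.6 to 59.1), or 28 of 60 regions. The interval of this last bin lies above that of the bin before it. Of its 28 members, however, 20 were in chains of 5 or more members (defined below), so its regions are not independent. A wider region also offers more places for a KAP1 peak to fall, which these shares do not correct for.

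**Figure D1:**
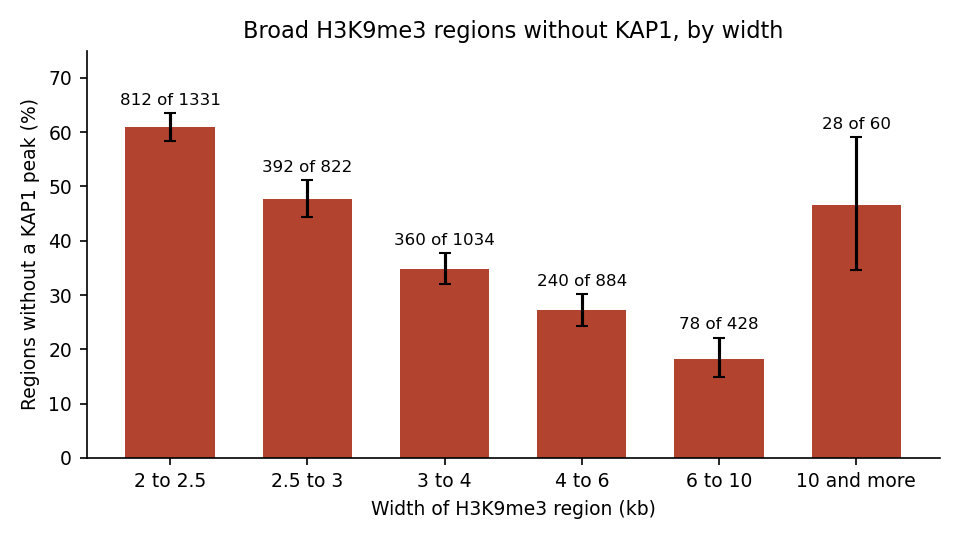
Share of broad H3K9me3 regions without a KAP1 peak (percent, y axis) in 6 bins of region width (kb, x axis). Bars are shares, whiskers 95% Wilson intervals, and the counts above each bar give regions without KAP1 of all regions in the bin; the share is 61.0% in the narrowest bin, 18.2% at 6 to 10 kb and 46.7% at 10 kb and more.

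The deposited H3K9me3 score is a whole number that follows width across the list, so it was divided by width and compared within width bins. In each width bin under 6 kb, members had a lower median score per kb than regions with KAP1. In the wider bins they had a higher one. Over all members the median was 84.4 per kb (interval 83.5 to 85.1, quartiles 76.7 and 94.96). Regions with KAP1, weighted to the same widths, had 87.9 (quartiles 80.3 and 96.1). Of the members, 41.0% (interval 38.9 to 43.3) exceeded the median of regions with KAP1 in their own width bin. At 2 to 2.5 kb the medians were 82.1 without and 86.0 with KAP1, and at 4 to 6 kb they were 86.5 and 88.0. The order turned at 6 to 10 kb, with 97.4 without and 86.8 with KAP1. At 10 kb and more the medians were 113.3 and 107.0. Of the 78 members at 6 to 10 kb, 39 were in chains of 5 or more members (defined below), with a median of 102.0. The 26 in smaller chains and the 13 alone had medians of 93.7 and 93.6. At 10 kb and more, 20 of the 28 members were in chains of 5 or more.

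The quartiles of the classes overlapped in each of the 6 bins. At 6 to 10 kb the overlap was narrow, with quartiles of 86.9 and 121.1 without KAP1 against 82.6 and 93.1 with it. Width and score per kb were weakly related among members (Spearman's rho of 0.208 over 1910 regions) and hardly among regions with KAP1 (0.0511 over 2649). The range among members ran from 63.0 to 185.0 per kb. The highest lay on chromosome 5 at 138895852 to 138898749, where a region of 2898 bp scored 536, or 185.0 per kb. The next were on chromosome 4 at 147199296 to 147201779 (176.7 per kb) and on chromosome 1 at 188553537 to 188558974 (170.8 per kb). The lowest, 63.0 per kb, lay on chromosome 5 at 126533069 to 126535655 and scored 163 over 2587 bp. It was followed by chromosome 4 at 47112845 to 47115193 (64.3 per kb) and chromosome 5 at 131059937 to 131062413 (64.6 per kb).

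**Figure D2:**
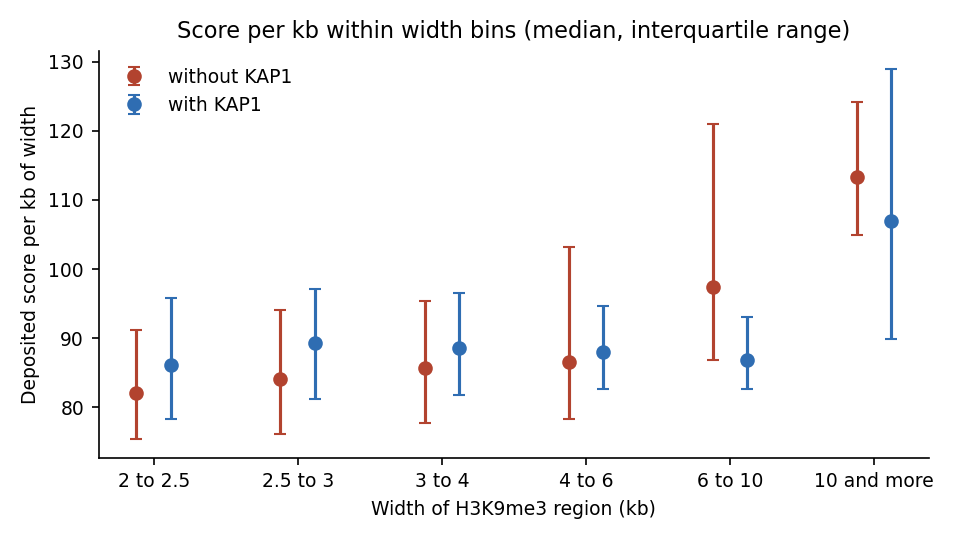
Deposited H3K9me3 score per kb of width (y axis, which does not start at 0) in 6 bins of region width (kb, x axis), for broad regions without and with KAP1. Points are medians and whiskers the quartiles over regions; members lie below regions with KAP1 in the 4 narrower bins (82.1 against 86.0 in the first) and above them in the others (97.4 against 86.8 at 6 to 10 kb).

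Members stood about as far from KAP1 as KAP1-free narrow H3K9me3 regions did. The median gap from a member's edge to the nearest KAP1 peak was 43.4 kb (interval 39.6 to 47.5, quartiles 13.4 and 105.0). KAP1-free regions under 2000 bp had a median of 48.9 kb (quartiles 14.0 and 118.7). The rule sets only that the gap is above 0. A KAP1 peak lay within 1 kb of 76 members (3.98%, interval 3.19 to 4.95) and within 10 kb of 400 (20.9%, interval 19.2 to 22.8). Within 50 kb it lay for 1025 (53.7%, interval 51.4 to 55.9) and within 100 kb for 1399 members (73.2%, interval 71.2 to 75.2), which left 511 farther away. Regions with KAP1 had a further, non-overlapping peak within 10 kb in 51.9% and within 100 kb in 81.8%, weighted to the widths of the members. The classes thus differed more at 10 kb than at 100 kb.

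The KAP1 peak nearest to a member was in H3K9me3 at about the rate of the whole KAP1 list. It overlapped another H3K9me3 region for 44.7% of members (interval 42.5 to 47.0), beside 44.1% of all KAP1 peaks. For the 76 members with KAP1 within 1 kb, that peak had a median deposited score of 113.8 (quartiles 87.9 and 172.3). KAP1 peaks inside broad regions had a median of 164.0 (quartiles 104.6 and 265.5), and all KAP1 peaks 106.1. These 76 members also had the lowest median score per kb of any distance class, 79.5 (quartiles 74.4 and 85.2). The medians of the other classes lay between 83.4 and 85.8. Width differed little with distance, with medians of 2546 bp up to 1 kb, 2759 bp at 10 to 50 kb and 2584 bp beyond 100 kb.

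The 3 members farthest from KAP1 were on chromosome 2. The first, at 162113578 to 162116165, stood 633.7 kb from the nearest peak. It was 2588 bp wide and scored 74.6 per kb. The next, at 179346798 to 179349340 and 179217542 to 179220364, were 613.2 and 606.6 kb away and lay between the same pair of KAP1 peaks, 1351.6 kb apart.

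**Figure D3:**
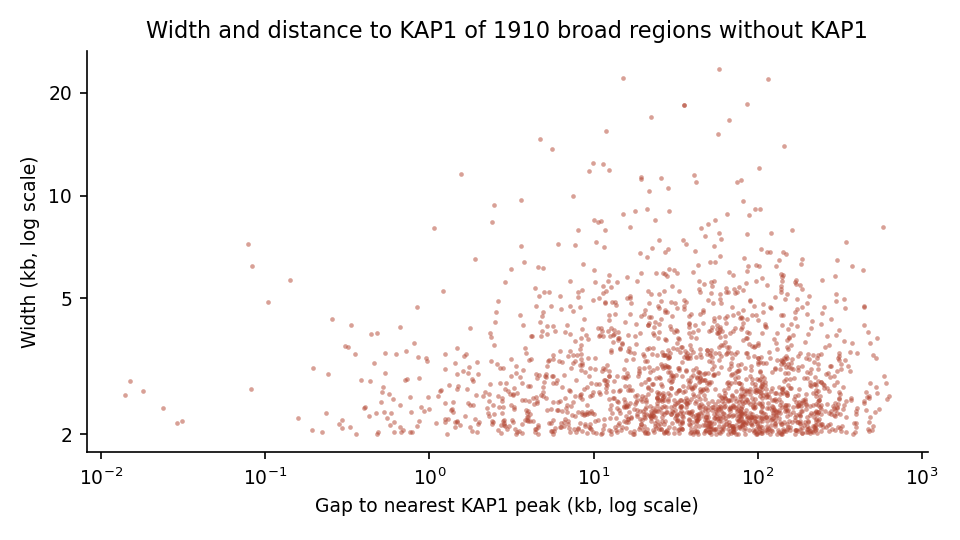
Each point is 1 of the 1910 members, placed by its gap to the nearest KAP1 peak (kb, log scale, x axis) and its width (kb, log scale, y axis). Members of all widths are found from about 10 to 100 kb from KAP1, and the 76 within 1 kb include none of 10 kb or more.

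Absence from the KAP1 list does not exclude a weaker call. The list holds 19549 peaks with names numbered by position up to 36417, and no score in it is below 70. Numbers are therefore left out between neighbouring peaks. Of the 1890 members with a KAP1 peak on both sides, 418 (22.1%, interval 20.3 to 24.0) lay between peaks with consecutive numbers, so that no numbered call was left out there. Over the whole list, 55.9% of the 19528 pairs of neighbouring peaks had consecutive numbers. Over all 1890 members, 2 numbers (quartiles 1 and 3) were left out in a stretch with a median length of 248.9 kb. All intervals between neighbouring KAP1 peaks had a median of 47.6 kb, so 22.1% and 55.9% compare stretches of unlike length. The 418 members resembled the 1472 others in width, with medians of 2695 and 2617.5 bp, and in score per kb, with 85.6 and 83.8. They stood nearer to KAP1, at a median of 21.9 kb against 54.1 kb, and a shorter stretch also offers fewer places for a left-out number. Among the 10 widest members, those starting at 81512126 on chromosome 10 and 4617153 on chromosome 8 were in this stricter set.

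Mean H3K9me3 cover around the members reached farther than around regions with KAP1. At 1 to 2 kb from the edge, other H3K9me3 regions covered 14.4% of the bases beside members and 17.7% beside regions with KAP1. From 3 kb on the order was the opposite, with 10.7% beside members and 8.70% beside regions with KAP1 at 3 to 5 kb. At 5 to 7.5 kb the cover was 9.74% beside members and 3.06% beside regions with KAP1, and at 75 to 100 kb it was 5.11% and 2.15%. These values are means over regions as they are. Weighted to the widths of members, a setting chosen after seeing the data, cover beside regions with KAP1 was 19.5%, 10.2%, 2.75% and 2.08% at the same distances. Without chains of 5 or more members (defined below), cover at 5 to 10 kb was 4.99% beside members and 2.45% beside regions with KAP1. The whole span of the chromosomes was covered to 1.54%. Beside regions with KAP1 the cover dropped from 8.70% at 3 to 5 kb to 3.06% in the next 2.5 kb, while beside members it declined by small steps.

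KAP1 itself followed the same edge. Beside regions with KAP1, midpoints of further KAP1 peaks stood at 101.4 per Mb at 1 to 2 kb, 56.4 at 3 to 5 kb and 12.1 at 5 to 7.5 kb. Beside members they stood at 19.9 per Mb at 1 to 2 kb and 11.9 at 5 to 7.5 kb. From 10 to 100 kb the values were between 9.99 and 11.3 beside members and between 9.01 and 10.6 beside regions with KAP1, against 7.57 over all chromosomes. The member value in the first kb, 13.4 per Mb, is held down by the rule, which bars overlap. KAP1 density outside the nearest 5 kb was thus close in both classes.

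**Figure D4:**
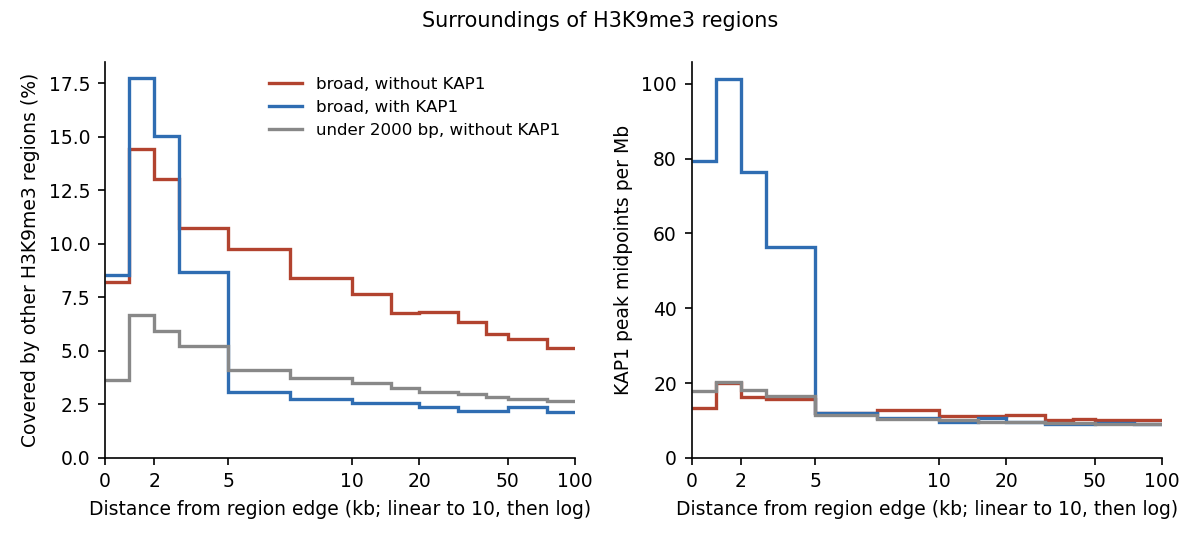
Left, share of bases covered by other H3K9me3 regions (percent); right, KAP1 peak midpoints per Mb; both against the distance from the region edge (kb, linear to 10 and logarithmic beyond), pooled over both sides of all regions in a class. Cover beside members falls from 14.4% at 1 to 2 kb to 5.11% at 75 to 100 kb, whereas beside regions with KAP1 both cover and KAP1 drop at 5 kb, to 3.06% and 12.1 per Mb.

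This cover was uneven among members. The median member had 3.74% of its 10 kb flanks covered (quartiles 0 and 13.6), and regions with KAP1, weighted for width, had 5.50% (quartiles 0 and 13.2). In 50 kb flanks the medians were 3.23% and 2.44%, and the upper quartiles 8.76% and 4.29%. The share of members above the width-bin median of regions with KAP1 was 43.4% (interval 41.1 to 45.6) for 10 kb flanks and 56.7% (interval 54.5 to 58.9) for 50 kb flanks. Without chains of 5 or more members, a setting added after the data were seen, the 50 kb share was 48.0% (interval 45.6 to 50.5). Mean cover at 50 to 100 kb was then 2.62% beside 1570 members and 1.90% beside 2594 regions with KAP1. At 2 to 2.5 kb of width, with 812 members, the 50 kb medians were 2.34% without and 2.48% with KAP1. Flank cover was higher in wider members, with a 10 kb median of 2.39% at 2 to 2.5 kb and 31.8% at 10 kb and more. Regions with KAP1 showed no such order, with medians of 6.12% and 7.90% in those bins and 0% at 6 to 10 kb.

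Members formed long chains more often than regions with KAP1 did, although close pairs were about as common in both classes. Broad regions of both classes were chained when no more than 100 kb apart. Another broad region lay within 100 kb of 1048 members (54.9%, interval 52.6 to 57.1) and of 1250 regions with KAP1 (47.2%, interval 45.3 to 49.1). Within 10 kb it did for 23.1% of members (interval 21.3 to 25.1) and 24.7% of regions with KAP1 (interval 23.1 to 26.4). The nearest broad region within 100 kb lacked KAP1 for 65.9% of members (interval 63.0 to 68.7) and for 27.8% of regions with KAP1 (interval 25.4 to 30.4), beside 41.9% of all broad regions. Of the 833 chains with 2 or more broad regions, 143 lacked KAP1 throughout, 349 held it throughout and 341 were mixed. At least 5 members were found in 39 chains, which held 340 members (17.8%) and 55 regions with KAP1. By contrast, 6 chains held 5 or more regions with KAP1, and the most in any chain was 7.

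Members in the chains of 5 or more were wider and scored higher per kb than members elsewhere. Their median width was 3.33 kb (interval 3.14 to 3.47), against 2.50 kb (interval 2.44 to 2.54) for the 862 members with no other broad region within 100 kb. Their median score per kb was 89.3 (interval 85.8 to 92.7), against 83.5 (interval 82.5 to 84.6). Of the 28 members of 10 kb or more, 20 were in these chains and 1 stood alone. In the chains 51.2% of members (interval 45.9 to 56.4) exceeded the width-bin median of regions with KAP1, and among lone members 38.5% (interval 35.3 to 41.8). The 55 regions with KAP1 in the same chains were likewise wide, with a median of 5013 bp and 95.02 per kb. Lone members stood 70.8 kb from KAP1 at the median and members of these chains 33.3 kb. The 708 members in chains with under 5 members stood at 28.0 kb (interval 24.9 to 32.5), so nearness was not particular to the long chains.

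The 10 chains with the most members lay on 7 chromosomes and held 168 members beside 30 regions with KAP1. The longest run was on chromosome 13 from 61731189 to 62884413. It had 28 members and 6 regions with KAP1 over 1153.2 kb, and 25 KAP1 peaks. Its members had a median width of 3233.5 bp (range 2040 to 11780), against 2639.5 bp over all members. Their median score per kb was 81.9, within the quartiles of all members (76.7 and 94.96). On chromosome 10 from 81114315 to 81676613, 23 members and 7 regions with KAP1 stood among 14 KAP1 peaks, and no member there was more than 35.4 kb from KAP1. H3K9me3 covered 39.8% of that span. KAP1 stood at 21.7 and 24.9 peaks per Mb in these chains, against 7.57 over all chromosomes. In the chromosome 13 chain it was uneven, since 11 of the 28 members lay in 1 KAP1-free interval of 417.1 kb and gaps reached 192.7 kb.

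Chromosome 17 held 3 of the 10 chains. From 21941176 to 22631535, 23 members covered 174.5 kb, the most of any chain, with a median width of 5593 bp. In these 690.4 kb lay 5 KAP1 peaks, or 7.24 per Mb. A stretch with wide members was picked from it after its values were seen. Side by side stood members of 21956, 12044, 10937, 15185 and 5593 bp, between 22056992 and 22142146. Their scores per kb were 114.8, 103.4, 105.5, 113.5 and 96.5, and their gaps to KAP1 declined from 114.9 to 51.7 kb. All 5 were above the 84.4 of the median member. The 23 members of the chain ranged from 69.1 to 130.3 per kb, with a median of 92.6.

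The chain on chromosome 17 from 33361484 to 33492146 was short, dense and without KAP1 regions. Its 13 members covered 54.5 kb of a span of 130.7 kb that held 1 KAP1 peak, and all H3K9me3 regions covered 47.6% of that span. The widest of them, 9991 bp at 33434216 to 33444206, scored 138.8 per kb and stood 7.54 kb from that peak. The highest score per kb was 154.5, over 6253 bp at 33376409 to 33382661. The lowest was 72.4, over 3469 bp at 33364640 to 33368108. Both were among the first 5 members by position. The remaining chain, from 17095952 to 17456661, had 19 members of up to 14630 bp, 2 regions with KAP1 and 10 KAP1 peaks. Its members stood a median of 9.69 kb from KAP1.

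A pair of chains of similar width differed in score per kb. The 12 members on chromosome 13 from 67591051 to 67927708 had a median width of 3368 bp and scored between 91.8 and 139.0 per kb, with a median of 124.9. The 19 members on chromosome 15 from 86827416 to 87348177 had a median width of 2839 bp and scored between 66.3 and 106.5 per kb, with a median of 73.8. The ranges overlapped between 91.8 and 106.5, where the chromosome 15 chain had 1 member, of 5371 bp at 87277362 to 87282732. Their spans held 2 and 4 KAP1 peaks, or 5.94 and 7.68 per Mb, beside 7.57 over all chromosomes. The chromosome 13 chain held no broad region with KAP1 and the chromosome 15 chain held 3.

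Of the other chains among the 10, that on chromosome 2 from 149939962 to 150304884 had the widest members by median, 6502 bp, with 13 members and 4 KAP1 peaks. On chromosome 12 from 17863276 to 18160565, 9 members stood a median of 7.16 kb from the nearest of 8 KAP1 peaks. On chromosome 18 from 37796894 to 37978380, 9 members had a median width of 2933 bp (range 2282 to 4733) and 85.1 per kb. That chain also had 1 region with KAP1, of 12468 bp with 2 KAP1 peaks, and its span held 3 KAP1 peaks. Windows of 1 Mb gave partly the same places. On chromosome 10, 28 members lay between 81 and 82 Mb. On chromosome 17, 27 lay between 22 and 23 Mb, and on chromosome 13, 21 between 62 and 63 Mb. Between 17 and 18 Mb on chromosome 17 and between 37 and 38 Mb on chromosome 18 there were 19 each. Members were found in 1026 of 2593 windows, and 504 of them (26.4%) in the 58 windows with 5 or more. Regions with KAP1 were spread over 1485 windows with at most 9 in a window. Of these windows, 42 held 5 or more, with 233 of the 2649 regions with KAP1.

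The 10 widest members were all of 15185 bp or more, and 9 of them stood in chains with 5 or more members. The widest, on chromosome 17 at 22419920 to 22443391, spanned 23472 bp with a score of 2903, which is 123.7 per kb, and stood 58.3 kb from KAP1. On chromosome 4 at 12024499 to 12046609, a region of 22111 bp scored 102.5 per kb, 15.02 kb from KAP1. On chromosome 17 at 22056992 to 22078947, 21956 bp scored 114.8 per kb, 114.9 kb from KAP1. These widths were far above the upper quartile of 3469 bp.

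Chromosome 13 held the next, 18564 bp at 74577508 to 74596071 (120.8 per kb) and 18448 bp at 65386920 to 65405367 (125.5 per kb). The member on chromosome 10 at 81512126 to 81530529, of 18404 bp, had the highest score per kb of the 10, 140.5. On chromosome 8 at 4617153 to 4634100, 16948 bp scored 133.3 per kb. Chromosome 2 held members of 16619 bp at 149939962 to 149956580 (112.5 per kb) and 15428 bp at 150140185 to 150155612 (115.9 per kb). The tenth, on chromosome 17 at 22120979 to 22136163, scored 113.5 per kb. All 10 exceeded the upper quartile of the members' score per kb, 94.96. That quartile covers all widths, and the 28 members of 10 kb and more had quartiles of 105.0 and 124.1. Their gaps to KAP1, from 11.9 to 114.9 kb, spread over most of the members' usual range.

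Chromosomes 15, 17, 13 and 10 held the most members per Mb. Chromosome 15 had 212 members, 2.11 per Mb (interval 1.84 to 2.41) against 0.740 on all, a ratio of 2.85 (interval 2.48 to 3.26). Its regions with KAP1 had a ratio of 1.30 (interval 1.09 to 1.54). For members the ratio was 2.12 on chromosome 17 (interval 1.79 to 2.50), 1.74 on chromosome 13 and 1.48 on chromosome 10. Chains of 23, 19 and 13 members were among the 145 members of chromosome 17. Without the 10 chains with most members, only the chromosome 15 ratio was recomputed, at 2.85 (interval 2.46 to 3.28). For regions with KAP1 the ratios were 1.31, 1.29 and 1.22 there. Chromosome 9 stood at the low end, with 41 members and a ratio of 0.458 (interval 0.328 to 0.621), while its regions with KAP1 had a ratio of 0.990. On Y there were 0 members and 2 broad regions, both with KAP1, in a span of 2.75 Mb.

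**Figure D5:**
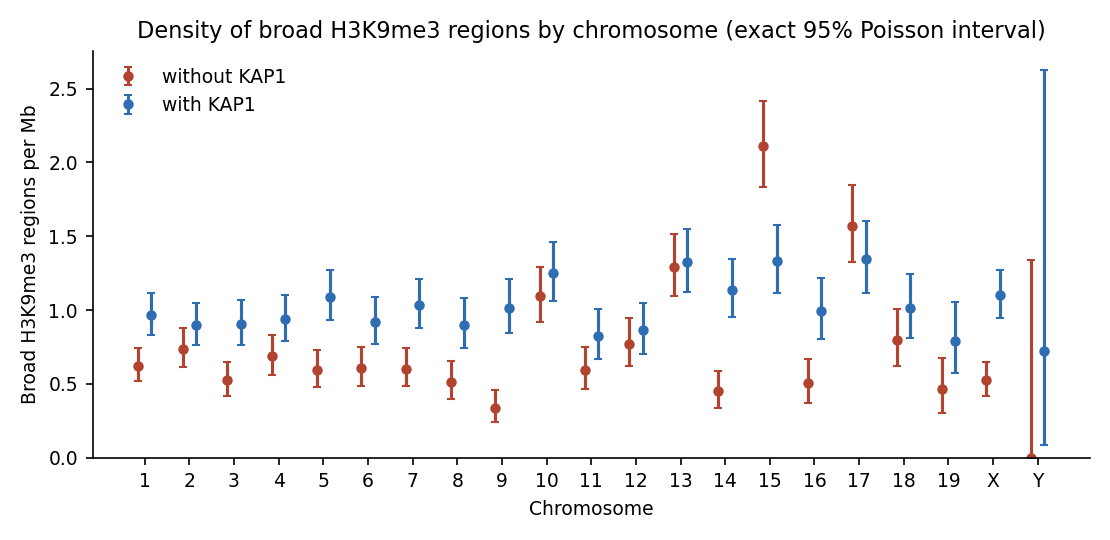
Broad H3K9me3 regions per Mb (y axis) on each chromosome (x axis), without and with KAP1; points are densities over the stretch from the first to the last base in either list, and whiskers exact 95% Poisson intervals. Members reach 2.11 per Mb on chromosome 15 and 1.57 on chromosome 17 and are lowest among the autosomes on chromosome 9, whereas regions with KAP1 vary less.

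On chromosome 15, 61.3% of broad regions lacked KAP1 (interval 56.04 to 66.3), against 40.3% on the other chromosomes (interval 38.8 to 41.8). Weighted to the widths of all broad regions the share was 57.8% on chromosome 15, 53.7% on chromosome 17 and 24.5% on chromosome 9. The excess on chromosome 15 was largest among the narrower regions. At 2 to 2.5 kb, 103 of 125 lacked KAP1 (82.4%, interval 74.8 to 88.1), against 58.8% elsewhere (interval 55.99 to 61.5). At 4 to 6 kb, 19 of 53 did (35.8%, interval 24.3 to 49.3), against 26.6% elsewhere (interval 23.7 to 29.7). Chromosome 15 had a KAP1 peak every 84.4 kb, against every 132.0 kb over all chromosomes. The cause of its excess of members was not tested. Its members had a median width of 2513 bp and 83.8 per kb, close to the 2656 bp and 84.4 per kb of members elsewhere. Regions with KAP1 on chromosome 15 had a median of 93.8 per kb, against 88.0 over all chromosomes. Divided by the H3K9me3 regions of each chromosome in place of its length, the ratio for chromosome 15 was 1.49 (interval 1.30 to 1.71).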

How the data were processed

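Both lists are the authors' deposited region lists from 1 library each. Per the submitters' processing notes, Bowtie2 2.2.1 and the mouse build mm9 were used. Peak names in the KAP1 file have the form written by MACS. Neither the caller settings, the H3K9me3 caller, the use of a control nor the meaning of the deposited score is stated (not given in the sources used here). The score was used only within its own list. The members and every list were chosen with earlier results of these data known.

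Overlap meant at least 1 shared bp. Width bins began at 2, 2.5, 3, 4, 6 and 10 kb, and weighting gave regions with KAP1 the members' share of each bin. Gaps were taken edge to edge, flanks left out the region itself, and density used the stretch from first to last listed base. Intervals are 95%: Wilson for shares, exact Poisson for densities, binomial ranks for medians. Named regions are the 10 widest members, the 10 chains and 5 windows with most members, and the 3 extremes of score per kb, distance and each limit. Single members of 3 chains, the pair of chains with extreme score per kb, and chromosomes 9 and 15 were picked after their values were seen. Overlaps and gaps were checked against bedtools and tested on simulated data. Python 3.11.15, numpy 2.4.6, pandas 2.3.3 and scipy 1.17.1 were used.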

Additional observations from a re-analysis of the deposited data

How the results depend on the processing

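In 18 of 42 alternatives the value stayed within its interval, or the count within 1.5 times. The number of members was 3655 with a width limit of 1.5 kb, 706 with 3 kb and 187 with 5 kb. The share of broad regions without KAP1 was then 52.9%, 29.3% and 23.4%. It was 49.7% against the upper 50% of KAP1 peaks by score, 46.2% after merging regions within 1 kb, and 40.3% without chromosome 15. The median width was 3972 bp with the 3 kb limit and 2766 bp after merging. The share of members above the score per kb of regions with KAP1 was 47.2% from 3 kb (interval 43.5 to 50.9). The median gap to KAP1 was 90.9 kb against the upper 50% of KAP1 peaks and 37.9 kb for members of 3 kb or more. The share above the flank cover of regions with KAP1 turned direction with 50 kb flanks, at 56.7%, and at 55.2% without chromosome 15. It was 48.2% without width bins, and without chains of 5 or more members 34.6% at 10 kb and 48.0% at 50 kb. Another broad region lay within 50 kb of 43.9% of members, within 200 kb of 68.9%, and within 100 kb of 50.7% from 3 kb. The chromosome 15 ratio was 1.49 per H3K9me3 region and 2.33 from 3 kb. The width limits, gaps and lists change these values by their construction, and other causes were not tested. Settings without chromosome 15 or the chains were added after the data were seen. The annotation and sequence steps were not run, since no mm9 reference was used. No paired analysis was possible because each antibody has a single library. Unknown depth limits what the absence of a KAP1 peak shows.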

Other observations

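Seen from the KAP1 list, members fell between the same peaks in a few places. The intervals between neighbouring KAP1 peaks numbered 19528, with a median length of 47.6 kb, and 1370 of them held a member. Most of those, 1085, held 1 member, and 31 held 5 or more, with 210 members in all. The interval with the most was on chromosome 15 from 86147906 to 87124496, with 17 members in 976.6 kb, a median width of 2464 bp and 71.8 per kb. A neighbouring interval, from 87131491 to 87346766, held 10 members with 75.005 per kb. On chromosome 17 the intervals from 21737342 to 22193806 and from 22194619 to 22501700 held 10 and 9 members, of up to 21956 and 23472 bp. On chromosome 13 an interval from 61733784 to 62150867 held 11. The numbers left out of the KAP1 names in these 5 intervals were between 1 and 5.

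The share of members near chromosome ends was close to that of other H3K9me3 regions at the last end. Within 5 Mb of the first covered base lay 107 members (5.60%, interval 4.66 to 6.73), and within 5 Mb of the last 108 (5.65%, interval 4.70 to 6.78). Such a stretch makes up 4.07% of the span. All H3K9me3 regions were at 4.53% (interval 4.33 to 4.74) and 5.00% (interval 4.79 to 5.22). Regions with KAP1 were at 6.38% (interval 5.51 to 7.38) and 3.66% (interval 3.01 to 4.45). On X the 86 members had the lowest median score per kb of any chromosome with members, 79.6, and regions with KAP1 there had 84.6, against 84.4 and 88.0 over all chromosomes.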
